A study of Mus musculus with 6 samples.

Results

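The genes described here are 38 genes of DNA replication licensing and of the replication fork, among the 52550 genes of the deposited gene table. They were chosen by symbol for their role in the pathway, and each of the 38 symbols matched 1 row of the table. They cover 10 roles, from marking of origins, through loading and activation of the helicase, to DNA synthesis, joining of the lagging strand and rebuilding of chromatin behind the fork. Transcripts were sequenced from primary keratinocytes, the main cells of the epidermis, isolated from the skin epidermis of wild type C57BL/6 mice at postnatal day 0 to 2 and kept 2 days in culture. The untreated group (3 libraries) received no cytokine, and the IL-33 group (3 libraries) received recombinant IL-33, an alarmin of the IL-1 family that signals through the receptor ST2, for 12 h. The sources used here give no dose. Nothing in the labels ties the 3 libraries of a group to different dishes, litters or mice, so every p-value is relative to a spread among libraries that could be purely technical.

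A cell copies its genome once per division. In G1 phase the origin recognition complex (ORC), Cdc6 and Cdt1 load the ring-shaped MCM2-7 helicase onto origins, a step called licensing. In S phase Cdc45 and the GINS complex join each MCM ring to form the active helicase, primase and DNA polymerase alpha lay down short primers, and polymerases epsilon and delta, held by the PCNA clamp, extend the leading and lagging strands. Transcription of many of these genes is driven at the G1/S boundary by E2F factors, and in epidermis they are expressed mainly in the dividing basal layer and decline as keratinocytes differentiate. In RNA from a whole culture, fewer cells in S phase and less transcript per cell cannot be told apart.

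All 38 genes were expressed, and none passed the test for a change with IL-33. The quasi-likelihood test of edgeR called 0 of 38 at an adjusted p under 0.05, where it called 0.0697% of all 15778 tested genes, and DESeq2, limma-voom and limma on FPKM also called 0. The lowest adjusted p was 0.575, for the histone chaperone subunit Chaf1a. At an unadjusted p under 0.05 there were 6 of 38 (15.8%), against 6.74% of all tested genes. Higher with IL-33 were 5 of them (Chaf1a, Mcm7, Mcm2, Rfc1 and Rpa1), where 3.42% of all genes were, and lower was Rpa2, where 3.31% were. The estimates were small. The log2 fold change (IL-33 minus untreated) was above 0 in 29 of 38 (76.3%, against 50.5% of all genes), with a median of 0.04 where all genes had 0.00, and it lay within 0.2 of 0 in 37 of 38. The 95% interval lay wholly within a 1.5-fold change either way for 37 of 38 (97.4%, against 61.9% of all genes), the exception being Fen1. The same held for 42 of 45 other replication genes, 22 of 22 mitosis genes and 15 of 18 E2F list genes described below. The median SE was 0.07 over the 38 genes, about as in these lists (0.08, 0.07 and 0.09 in the same order), and 0.13 over all tested genes. Intervals were thus narrower than for most tested genes, and this was not particular to the 38.

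Depth and cell type could bear on the values, and their part was not tested. The libraries held 34188173 to 45266298 deposited estimated counts, and the lowest value of any of the 38 genes in any library was 414. The 6 basal keratinocyte markers summed to 35615 ± 589 CPM untreated and 36653 ± 1311 with IL-33 (SD, n = 3; CPM is the count scaled to a common library size with TMM factors). Krt5 was higher in each treated library (18034 ± 242 and 18995 ± 753 CPM) and Itgb4 lower in each (1120 ± 10.00 and 954 ± 90.2 CPM), and neither passed the threshold. The 6 suprabasal markers summed to 17.7 ± 0.150 and 16.9 ± 1.92 CPM. Of the other cell types, 7 melanocyte markers summed to 1158 ± 27.4 and 1176 ± 54.1 CPM and 8 fibroblast markers to 151 ± 20.2 and 147 ± 17.2. Among the melanocyte markers Tyr was lower in each treated library (37.4 ± 10.2 and 28.8 ± 1.16 CPM). Mlana was higher in each (43.8 ± 0.371 and 45.5 ± 0.404 CPM), neither passed the threshold, and the rest overlapped. Most of the fibroblast sum was Vim, at 114 ± 19.4 and 114 ± 15.5 CPM. Col1a1 was lower in each treated library, at 7.70 ± 4.31 and 3.38 ± 0.887 CPM (edgeR adjusted p = 0.740). For all the other fibroblast markers the groups overlapped. The 8 immune markers summed to 18.9 ± 2.05 and 19.2 ± 3.07 CPM, nearly all of it Kit, which melanocytes also express (18.5 ± 1.70 and 17.9 ± 1.98 CPM), with Cd207, Cd3e, Trdc and Itgam at 0 in all 6 libraries and Lyz2 at 2.94 CPM in IL-33 replicate 3 and under 1 CPM elsewhere. The 5 endothelial markers summed to 17.4 ± 3.38 and 16.8 ± 0.416 CPM. Across the 38 genes untreated replicate 3 lay lowest and IL-33 replicates 1 and 3 highest. The median deviation from the mean of the 6 libraries was 0.00, -0.01 and -0.05 on the log2 scale for untreated replicates 1 to 3 and 0.04, -0.01 and 0.04 for IL-33 replicates 1 to 3. The part of these library differences in the results was not tested.

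The promoters were searched for motifs, which some of the genes share and others lack. RefSeq promoter windows (GRCm38.p6, 250 bases before to 50 bases after the transcript start) were on hand for 31 of the 38 genes, all but Mcm4, Gins1, Gins2, Gins4, Prim2, Pole and Rfc2. An E2F-type motif was searched as 4 spellings, TTTGGCGC, TTTCCCGC, TTTGCCGC and TTTCGCGC, on both strands. It was present for 15 of 31 genes (48.4%), against 2.6% of 27025 gene symbols with a window of the same length. The CCAAT motif, bound by NF-Y, was present for 21 of 31 (67.7%), against 41.1%, and both motifs for 9 of 31 (29.0%), against 1.3%. A match describes the letters of the window and does not show that a factor binds there. No E2F-type match means only that none of the 4 exact spellings was present, and does not show that E2F sites are absent. Some matches are printed with 26 bases of context, E2F-type letters in capitals and overlapping spellings run together, to show how closely the sites of genes in different roles resemble each other:
Orc1, chr4:108579418-108579443, plus strand: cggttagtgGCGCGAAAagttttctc
Cdc6, chr11:98908004-98908029, plus strand: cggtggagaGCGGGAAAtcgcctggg
Mcm3, chr1:20820277-20820302, minus strand: acttccgtgGCGGGAAAacttgggaa
Mcm3, chr1:20820263-20820288, minus strand: aaaacttgggaagtTTTGGCGCcaag
Mcm7, chr5:138172032-138172057, minus strand: tttcgaaccGCGGGAAAcagggtgtc
Mcm7, chr5:138171851-138171876, minus strand: gtgacgacgTTTCGCGCcaatttcgg
Gins3, chr8:95633509-95633534, plus strand: gagtgcggcGCGGGAAAgcgagtttg
Pola1, chrX:93632277-93632302, minus strand: catcacaggGCGCCAAAtgcactccc
Pole2, chr12:69228164-69228189, minus strand: tcggcggtgGCGCCAAAtcgcgaaca
Rfc3, chr5:151651202-151651227, minus strand: gtcgcacgcTTTCGCGCtcgcgggaa
Lig1, chr7:13278843-13278868, plus strand: ccaaagtgcGCGCGAAAtctgtgtgg
Uhrf1, chr17:56304119-56304144, plus strand: cgagtcgggTTTCGCGCgcccaggcg

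Among the MCM helicase genes, Mcm3, Mcm5, Mcm6 and Mcm7 had a window with both motifs. Mcm2 had a CCAAT match only, and Mcm4 had no window. The 250 bases before the start of Mcm5 and of Mcm6 are printed as windows that hold both motifs. Those of Mcm2 and Chaf1a are printed beside them because these genes had among the smallest p-values of the 38 and no E2F-type match. In each, E2F-type and CCAAT letters (ATTGG on the other strand) are in capitals:
Mcm5, chr8:75109259-75109508, plus strand: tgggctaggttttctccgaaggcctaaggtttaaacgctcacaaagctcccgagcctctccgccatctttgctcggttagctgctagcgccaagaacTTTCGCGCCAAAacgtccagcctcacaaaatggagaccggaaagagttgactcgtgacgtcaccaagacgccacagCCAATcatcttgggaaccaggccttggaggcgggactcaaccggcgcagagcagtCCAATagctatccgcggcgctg
Mcm6, chr1:128359706-128359955, minus strand: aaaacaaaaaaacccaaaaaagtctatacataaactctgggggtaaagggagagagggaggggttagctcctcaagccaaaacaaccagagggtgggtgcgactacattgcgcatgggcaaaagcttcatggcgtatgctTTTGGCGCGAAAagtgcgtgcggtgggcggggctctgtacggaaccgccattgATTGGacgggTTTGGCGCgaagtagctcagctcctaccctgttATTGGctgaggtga
Mcm2, chr6:88898781-88899030, minus strand: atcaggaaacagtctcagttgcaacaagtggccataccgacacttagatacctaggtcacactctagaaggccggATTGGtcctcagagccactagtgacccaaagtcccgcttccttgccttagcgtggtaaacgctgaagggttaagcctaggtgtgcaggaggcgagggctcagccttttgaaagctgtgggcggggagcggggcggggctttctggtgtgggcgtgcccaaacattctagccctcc
Chaf1a, chr17:56040166-56040415, plus strand: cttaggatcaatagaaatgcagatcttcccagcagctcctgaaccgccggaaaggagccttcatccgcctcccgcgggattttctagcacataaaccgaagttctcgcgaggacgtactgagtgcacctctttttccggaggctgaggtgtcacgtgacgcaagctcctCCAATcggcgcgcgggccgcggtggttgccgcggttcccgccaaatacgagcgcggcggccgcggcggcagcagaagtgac
Set beside the response, the genes with a match did not have the higher median. For the 15 genes with an E2F-type match the median log2 fold change was 0.03, and 1 of 15 (Mcm7) had an unadjusted edgeR p under 0.05. For the 16 with a window and no match the median was 0.08, and 5 of 16 had such a p. The difference between these 2 sets was not tested.

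Levels per length spanned a wide range. They are given as FPKM summed over the transcripts of a gene, and the order in this paragraph is for that sum unless stated. The sliding clamp Pcna was the most abundant at 176 ± 7.60 FPKM untreated and 185 ± 5.28 with IL-33 (SD, n = 3), above all other genes of the 38 in each library. The 6 MCM genes and Uhrf1 followed, with means over the 6 libraries from 53.1 FPKM (Mcm4) to 87.0 FPKM (Mcm7). All 6 libraries of Mcm4 lay below those of the other 6 genes, whose neighbours in the order overlapped in single libraries. The lowest levels were those of the GINS subunit Gins3 (4.34 ± 0.513 and 4.25 ± 0.453 FPKM), of Gins2 (8.09 ± 0.718 and 8.23 ± 0.622 FPKM), and of the catalytic subunit of polymerase alpha, Pola1 (8.59 ± 0.472 and 8.49 ± 0.914 FPKM). In the GINS complex, whose 4 subunits assemble in equal number, the levels thus ran from Gins3 through Gins2 and Gins1 (14.5 FPKM over all libraries) to Gins4 (26.7 FPKM). The 6 MCM subunits, which also form a ring with 1 copy each, stood closer together. The order depends on the measure. In the deposited gene-level FPKM, which is lower for most of these genes, Pcna (114 FPKM over all libraries) was still highest and Gins3 (3.88 FPKM) still lowest. There Mcm2 lay at 30.1, Mcm7 at 48.2, Mcm3 at 52.1, Mcm6 at 52.2, Mcm4 at 53.1 and Mcm5 at 58.1 FPKM, and Pola1 (5.07), Mcm10 (5.22) and Prim2 (6.01) lay below Gins2 (6.74 FPKM).

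**Figure D1:**
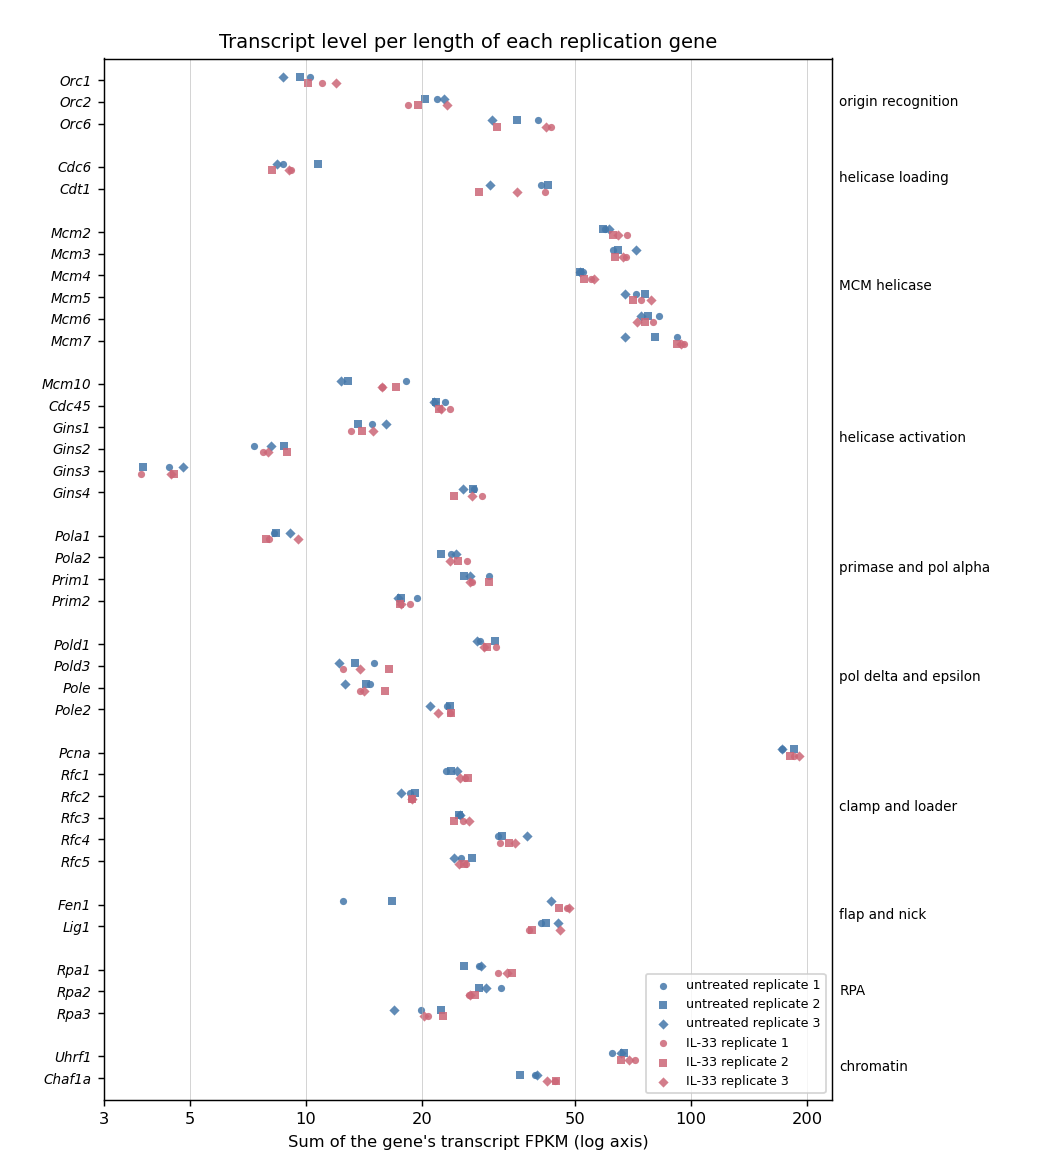
Level per length of each of the 38 replication genes in each library, as the sum of the deposited FPKM of its transcripts on a log axis, with genes grouped by role (blue untreated, red IL-33, 3 libraries each). Pcna stands alone near 180 FPKM, the MCM genes lie between 50 and 100 FPKM, and Gins3 is lowest near 4 FPKM.

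Origin recognition was represented by Orc1, the ATPase subunit that rises and falls with the cell cycle, Orc2 of the core, and the smallest subunit Orc6. None of the 3 reached an unadjusted p under 0.05. Orc2 had the third-lowest estimate of the 38 genes. It stood at 72.3, 67.5 and 71.9 CPM in the untreated libraries and at 57.8, 62.0 and 79.0 CPM with IL-33. The treated libraries lay on both sides of the untreated ones, and the log2 fold change was -0.09 (SE 0.11, edgeR adjusted p = 0.911). It was -0.0028 without IL-33 replicate 1 and -0.23 without IL-33 replicate 3. Orc6 had the highest level per length of the 3, with 55.2, 51.1 and 44.6 CPM untreated and 57.8, 44.3 and 57.5 CPM with IL-33, again overlapping (log2 fold change 0.08, SE 0.12, edgeR adjusted p = 0.927). Orc1 had an estimate of 0.12 with a 95% interval from -0.09 to 0.34.

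Cdc6 and Cdt1, which bring the MCM ring to ORC, did not separate the groups either. Cdt1, the licensing factor that geminin and the ubiquitin system remove after S phase begins, varied most after Fen1. It stood at 100.3, 102.6 and 73.3 CPM untreated and at 100.01, 68.6 and 96.0 CPM with IL-33, so that 1 library of each group lay low. Its log2 fold change was -0.06 with a 95% interval from -0.56 to 0.44 (edgeR adjusted p = 0.971), and it was above 0 when replicate 2 of either group was left out. Cdc6 was steadier, at 42.9 ± 0.745 and 43.7 ± 3.06 CPM (SD, n = 3).

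The helicase genes Mcm2 to Mcm7 all had estimates above 0, and for 3 of 6 the IL-33 libraries lay above every untreated one (Mcm2, Mcm4 and Mcm7). Among all 38 genes 8 (21.1%) were so ordered, where 7.39% of all tested genes were. Mcm7 (chromosome 5, 138164583 to 138172422) stood at 239.8, 225.2 and 212.7 CPM untreated and at 251.4, 243.8 and 249.9 CPM with IL-33. The lowest treated library lay just above the highest untreated one, and the log2 fold change was 0.14 (SE 0.05, 95% interval 0.03 to 0.25, edgeR adjusted p = 0.740). Mcm2 (chromosome 6, 88883474 to 88898780) stood at 223.0, 220.4 and 227.3 CPM untreated and at 252.4, 233.9 and 241.4 CPM with IL-33. The untreated libraries were close to each other, and the log2 fold change was 0.12 (SE 0.04, edgeR adjusted p = 0.740). Mcm5 stood at 247.7, 269.6 and 241.4 CPM untreated and at 260.2, 253.5 and 274.8 CPM with IL-33, with overlap and a log2 fold change of 0.06 (edgeR adjusted p = 0.879). The estimates of Mcm3, Mcm4 and Mcm6 were 0.00, 0.08 and 0.03. Summed over the 6 genes, MCM transcripts made up 1394 ± 9.17 CPM untreated and 1463 ± 32.7 CPM with IL-33. The lowest treated library had 1425 CPM and the highest untreated one 1403 CPM.

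**Figure D2:**
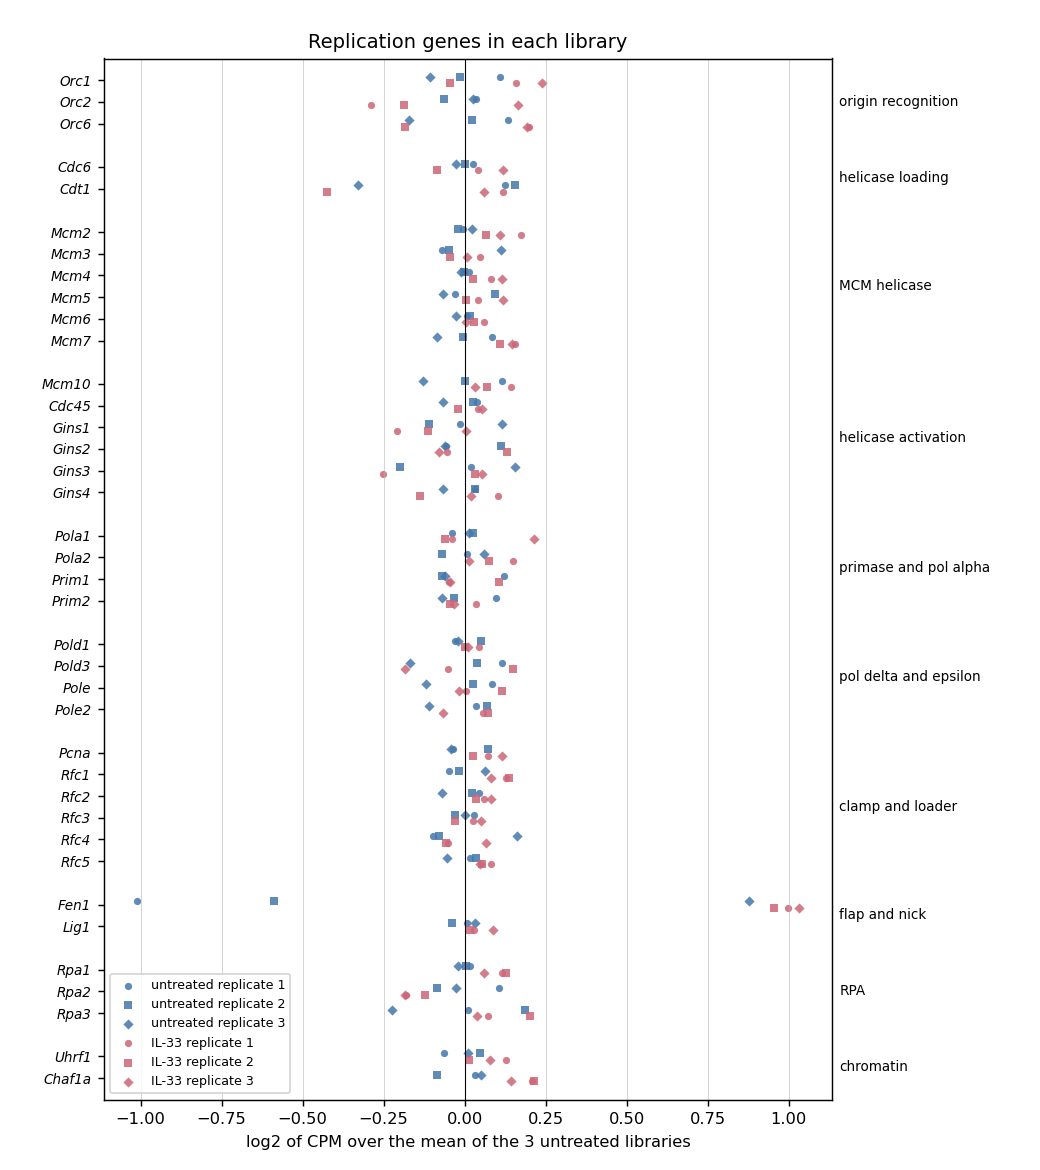
Each of the 38 genes in each library, as log2 of its CPM over the mean of the 3 untreated libraries, with 0 the untreated mean (blue untreated, red IL-33, 1 symbol per replicate). All points lie within 0.5 of the untreated mean except those of Fen1, whose untreated libraries 1 and 2 lie far to the left of the other 4 libraries.

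Activation of the helicase takes Mcm10, Cdc45 and the 4 GINS subunits. Of these 6 genes 3 had estimates above 0 and 3 below, none reached an unadjusted p under 0.05, and in all 6 the groups overlapped. Gins1 had the second-lowest estimate of the 38, with 17.5, 16.4 and 19.2 CPM untreated and 15.3, 16.4 and 17.8 CPM with IL-33 (log2 fold change -0.10, SE 0.11, edgeR adjusted p = 0.890). Gins4, the most abundant of the 6 per length, stood at 40.9, 40.9 and 38.2 CPM untreated and at 43.0, 36.3 and 40.6 CPM with IL-33. Its estimate was 0.00, with a 95% interval from -0.18 to 0.18. Cdc45 was at 48.9 ± 1.91 and 49.7 ± 1.38 CPM and Mcm10 at 43.5 ± 3.66 and 46.0 ± 1.79 CPM (SD, n = 3).

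The polymerases showed the same lack of separation. The polymerase alpha and primase genes (Pola1, Pola2, Prim1 and Prim2) had estimates from -0.01 to 0.08, and those of polymerases delta and epsilon (Pold1, Pold3, Pole and Pole2) from -0.02 to 0.03. In all 8 the groups overlapped. Pola2, the regulatory subunit of polymerase alpha, stood at 63.8, 60.4 and 66.1 CPM untreated and at 70.3, 66.8 and 64.0 CPM with IL-33 (log2 fold change 0.08, SE 0.06, edgeR adjusted p = 0.848). Prim1, the catalytic primase subunit, stood at 53.6, 47.0 and 47.3 CPM untreated and at 47.7, 53.1 and 47.8 CPM with IL-33. In each group 1 library was high and the other 2 were alike. Pold1, the catalytic subunit of polymerase delta, was among the steadiest genes, at 99.6, 105.1 and 100.1 CPM untreated and at 104.8, 101.7 and 102.3 CPM with IL-33 (log2 fold change 0.02, SE 0.05, edgeR adjusted p = 0.965).

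The clamp and its loader had estimates from -0.01 to 0.12. Pcna, the clamp that tethers the polymerases, stood at 289.0, 311.5 and 287.7 CPM untreated and at 311.0, 301.7 and 320.6 CPM with IL-33 (log2 fold change 0.07, SE 0.05, edgeR adjusted p = 0.808). Untreated replicate 2 lay among the treated libraries. Rfc1 (chromosome 5, 65261850 to 65335670), the large subunit of the loader that opens the clamp, stood at 116.7, 119.1 and 126.1 CPM untreated and at 131.8, 132.7 and 127.5 CPM with IL-33. The groups did not overlap, and the log2 fold change was 0.12 (SE 0.05, edgeR adjusted p = 0.740). Of the small subunits Rfc5 also did not overlap, at 77.9 ± 2.53 and 81.2 ± 1.08 CPM (SD, n = 3), and Rfc2, Rfc3 and Rfc4 did.

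Fen1, the flap endonuclease that trims the ends of Okazaki fragments, was the only 1 of the 38 with a large estimate, and its spread was large too. It lies on chromosome 19, 10199132 to 10204169. Fen1 stood at 29.6, 39.7 and 109.7 CPM in the untreated libraries and at 119.3, 115.6 and 122.0 CPM with IL-33. Untreated replicates 1 and 2 were low, and untreated replicate 3 lay just under the treated libraries. The log2 fold change was 0.99 with a 95% interval from -0.57 to 2.56 (edgeR adjusted p = 0.808), and without untreated replicate 3 it was 1.78 and passed the threshold (edgeR adjusted p = 0.00589). Of the 4 Fen1 transcripts, ENSMUST00000025651.5 was near 0 in untreated replicates 1 and 2 alone. ENSMUST00000025651.5 was given 0.315, 0.0487 and 81.4 CPM untreated and 54.5, 85.9 and 40.8 CPM with IL-33, while ENSMUST00000116542.8 stood between 13.1 and 32.2 CPM in all 6 libraries. ENSMUST00000156291.1 stood at 18.2 CPM in IL-33 replicate 1 and 39.6 CPM in IL-33 replicate 3. It was near 0 in the other 4 libraries, among them untreated replicate 3 and IL-33 replicate 2, where Fen1 was high.

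The antisense gene Gm10143 shares 1909 exonic bases with Fen1 on the opposite strand. It stood at 108.8, 111.0 and 105.2 CPM untreated and at 97.9, 100.04 and 99.0 CPM with IL-33. Its untreated libraries were alike, including replicate 3, where Fen1 was high. Added together, Fen1 and Gm10143 made 138.4, 150.7 and 214.9 CPM untreated and 217.2, 215.6 and 221.0 CPM with IL-33. The sources used here do not say whether the counting used strand, and without strand the reads of such a pair cannot be told apart. The part of read assignment in the Fen1 values was not tested. Lig1, the ligase that seals the trimmed nicks, stood at 119.7, 116.0 and 121.9 CPM untreated and at 121.7, 120.4 and 126.7 CPM with IL-33 (log2 fold change 0.04, SE 0.05, edgeR adjusted p = 0.898).

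The subunits of RPA, the complex that coats single-stranded DNA at the fork, did not all lie on the same side. Rpa1 (chromosome 11, 75298166 to 75348324), the large DNA-binding subunit, stood at 144.3, 143.1 and 140.7 CPM untreated and at 154.5, 155.9 and 148.9 CPM with IL-33. All treated libraries were above all untreated ones, and the log2 fold change was 0.10 (SE 0.04, edgeR adjusted p = 0.740). Rpa2 (chromosome 4, 132768332 to 132778752), the subunit phosphorylated in S phase and after damage, stood at 63.5, 55.5 and 57.8 CPM untreated and at 52.0, 54.1 and 51.9 CPM with IL-33. It was the only 1 of the 38 with every treated library below every untreated one (2.63%, against 6.26% of all genes), and its log2 fold change was -0.16 (SE 0.07, edgeR adjusted p = 0.740). Rpa3 overlapped, at 14.8 ± 2.08 and 15.9 ± 0.952 CPM (SD, n = 3). Summed over the 3 subunits RPA transcripts were at 216 ± 5.77 and 222 ± 5.54 CPM.

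Behind the fork, Chaf1a encodes the large subunit of CAF-1, which places histones H3 and H4 on new DNA, and Uhrf1 reads hemimethylated CpG and recruits the maintenance methyltransferase Dnmt1. Chaf1a (chromosome 17, 56040439 to 56072289) stood at 144.3, 133.0 and 146.2 CPM untreated and at 162.9, 163.6 and 155.9 CPM with IL-33. The groups were apart, and the log2 fold change was 0.19 (SE 0.05, 95% interval 0.07 to 0.30, edgeR adjusted p = 0.575). The gene on the opposite strand, Ubxn6, shares 4648 exonic bases with it and stood at 51.8, 54.8 and 51.8 CPM untreated and at 55.3, 61.6 and 56.0 CPM with IL-33. Its part in the Chaf1a values was not tested. Uhrf1 stood at 237.3, 256.2 and 249.7 CPM untreated and at 270.8, 250.2 and 261.5 CPM with IL-33, with overlap (log2 fold change 0.07, SE 0.05, edgeR adjusted p = 0.808).

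**Figure D3:**
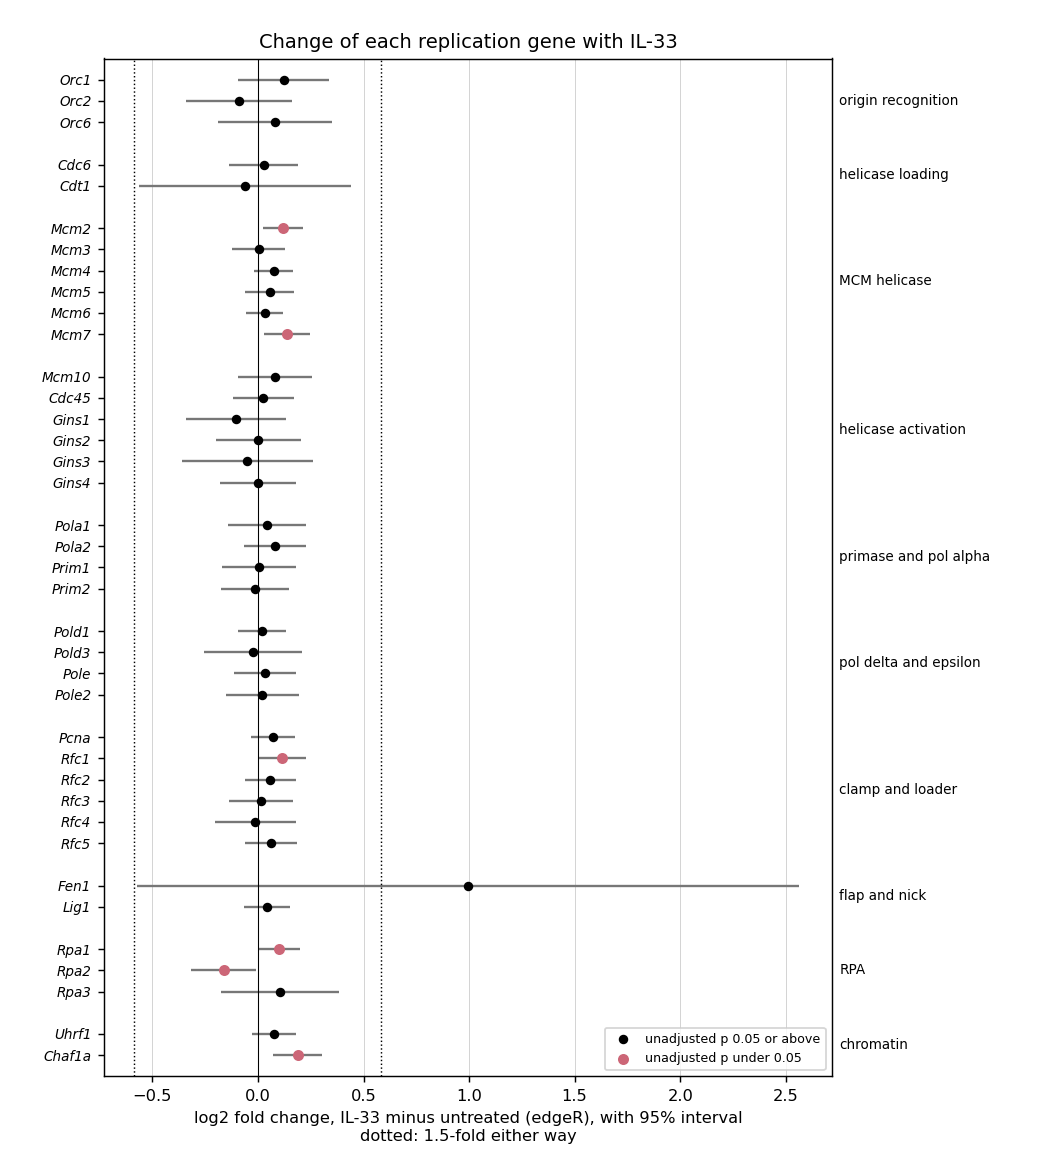
Log2 fold change (IL-33 minus untreated, edgeR) of each of the 38 genes with its 95% interval, by role, with red points for an unadjusted p under 0.05 and dotted lines at a 1.5-fold change either way. Every interval but that of Fen1, which runs from -0.57 to 2.56, lies between the dotted lines.

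Together the 38 genes took 3820 ± 11.2 CPM in untreated and 4031 ± 76.7 CPM in IL-33 libraries (SD, n = 3), and without Fen1 3760 ± 52.5 and 3912 ± 73.9 CPM. In both sums each treated library lay above each untreated one. The same order held for the sums of other lists described below. For the other replication genes the highest untreated library had 3500 CPM and the lowest treated one 3543 CPM. For the mitosis genes these were 2447 and 2483 CPM. In the E2F list the groups overlapped. The libraries of a group were close for these genes, with a median coefficient of variation of 5.45% untreated and 3.92% with IL-33. Over the 8436 tested genes in the same CPM range it was 5.59% and 6.22%. Besides Fen1 and Chaf1a, 8 genes share exonic bases with a gene on the opposite strand that had a mean of at least 1 CPM (Orc2, Orc6, Mcm7, Cdc45, Gins2, Rfc4, Rfc5 and Lig1), and their counts carry the same uncertainty.

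At the level of transcripts, 199 annotated to these genes were in the transcript table and 126 could be tested. edgeR called 0 of 126 at an adjusted p under 0.05, where 0.0299% of 40163 tested transcripts were called, and 7 (5.56%) had an unadjusted p under 0.05, against 4.24%. DESeq2 called 2 of the 173 to which it gave an adjusted p (1.16%), where it called 0.913% of all such transcripts. One was the Orc2 transcript ENSMUST00000114325.7, listed at 0 in the 3 untreated libraries and at 1.10, 1.08 and 1.10 CPM with IL-33 (edgeR adjusted p = 0.246, DESeq2 adjusted p = 1.80e-07). It made up 1.63% of the Orc2 counts with IL-33, and the main transcript, ENSMUST00000027198.11, 96.0%. The other was the Lig1 transcript ENSMUST00000185145.7, at 7.62, 6.65 and 9.25 CPM untreated and at 0.575, 0.614 and 1.60 CPM with IL-33 (edgeR adjusted p = 0.424, DESeq2 adjusted p = 2.92e-05). The main Lig1 transcript, ENSMUST00000098814.10, went the same way, at 99.2, 92.8 and 78.1 CPM untreated and at 76.4, 60.0 and 76.0 CPM with IL-33 (edgeR adjusted p = 1.00). The Lig1 gene total did not follow, and ENSMUST00000156525.8 took a large share of it in IL-33 replicate 2 alone.

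Among the other transcripts with the smallest p were the single Chaf1a transcript ENSMUST00000002914.8, Rfc4 ENSMUST00000115338.7, which stood at 2.43, 3.04 and 2.23 CPM untreated and at 3.72, 5.70 and 8.89 CPM with IL-33, and Pola2 ENSMUST00000165143.1, at 29.6, 11.3 and 16.2 CPM untreated and at 8.02, 9.85 and 8.80 CPM with IL-33. Assignment between near-alike transcripts moved strongly between libraries of 1 group. The Rfc1 transcript ENSMUST00000203581.2 held 68.9 CPM in untreated replicate 3 and 60.1 CPM in IL-33 replicate 2 and at most 0.0460 CPM in the other 4 libraries, while ENSMUST00000204965.2 was low in those same 2 libraries. For Mcm7 the protein-coding ENSMUST00000000505.15 was steady at 208.2, 206.3 and 210.8 CPM untreated and at 221.5, 212.8 and 220.2 CPM with IL-33 (log2 fold change 0.07, edgeR adjusted p = 1.00). The retained-intron ENSMUST00000142254.7 stood at 29.1, 16.9 and 0.0669 CPM untreated and at 28.5, 24.9 and 28.7 CPM with IL-33, so it was nearly absent from untreated replicate 3, the library in which the gene total was lowest. Of the 38 genes 22 had 1 transcript with at least 90% of their untreated counts. For Pold1 82.4% of them were assigned to ENSMUST00000151793.7, annotated as a target of nonsense-mediated decay.

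**Figure D4:**
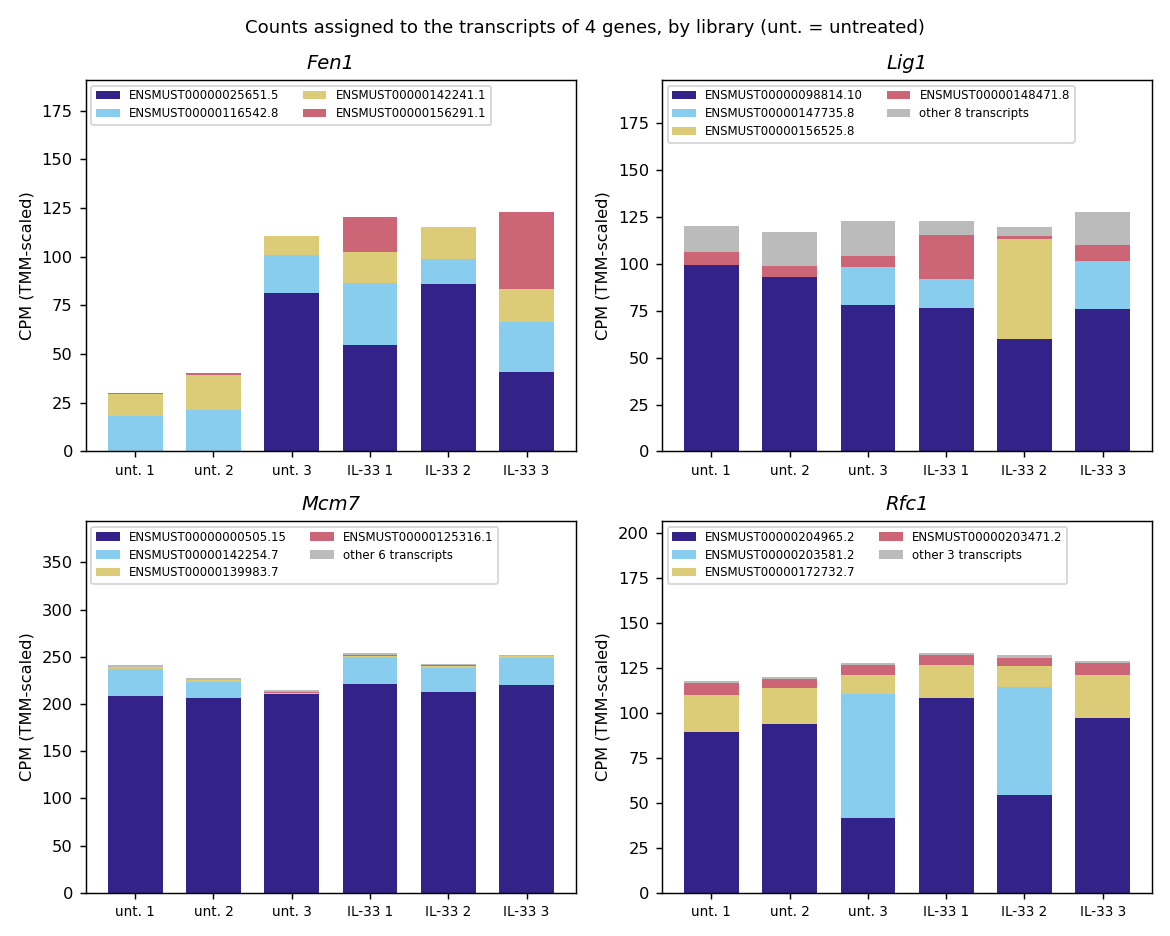
CPM assigned to each transcript of Fen1, Lig1, Mcm7 and Rfc1 in each of the 6 libraries, stacked, with the 4 most abundant transcripts coloured and the rest in grey. The height of Lig1, Mcm7 and Rfc1 is nearly even while their make-up shifts, and Fen1 lacks ENSMUST00000025651.5 (dark) in untreated libraries 1 and 2.

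Of 45 other replication genes, from geminin and the Dbf4-Cdc7 kinase to fork protection and the CST complex, edgeR also called 0. At an unadjusted edgeR p under 0.05 there were 5, all higher with IL-33, where 3.42% of all tested genes were. DESeq2 called 0 as well. Above 0 were 29 of 45 (50.5% of all tested genes were), with a median log2 fold change of 0.05. The smallest p-values were those of Mcm9, a helicase of recombination repair, at 13.1 ± 0.969 and 17.2 ± 1.60 CPM (SD, n = 3; log2 fold change 0.40, edgeR adjusted p = 0.588), of the maintenance methyltransferase Dnmt1, at 334 ± 11.1 and 362 ± 3.09 CPM, and of the fork protection gene Timeless, at 40.4 ± 0.256 and 46.9 ± 3.72 CPM (edgeR adjusted p = 0.717 for both). An E2F-type match was found for 27.0% of the 37 of these genes with a promoter window.

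The mitosis genes, which follow replication genes in the cell cycle, had the larger estimates. Of 22, 20 were above 0 (50.5% of all tested genes were), with a median log2 fold change of 0.12. edgeR called 0 of 22, and 7 had an unadjusted p under 0.05, all higher with IL-33, where 3.42% of all tested genes were. Cenpe, a kinesin of the kinetochore, was at 46.0 ± 4.21 and 60.0 ± 1.77 CPM (SD, n = 3; log2 fold change 0.38, edgeR adjusted p = 0.307), the proliferation marker Mki67 at 205 ± 16.2 and 246 ± 2.39 CPM (log2 fold change 0.26, edgeR adjusted p = 0.319), and the spindle factor Tpx2 at 161 ± 7.08 and 184 ± 5.51 CPM (log2 fold change 0.19, edgeR adjusted p = 0.504). DESeq2, which called 0.317% of the genes it tested, called Cenpe and Mki67, with adjusted p of 0.0170 and 0.0430. IL-33 replicate 3 stood highest for this list, with a median deviation from the mean of the 6 libraries of 0.12 on the log2 scale (0.01 and 0.03 in the other treated libraries), and its part in these values was not tested. A CCAAT match was found for 89.5% and an E2F-type match for 5.3% of the 19 mitosis genes with a promoter window. The differences between the 2 lists in response and in motifs were not tested.

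Of 18 genes of the E2F, pocket protein and G1/S cyclin axis, 14 were above 0, where 50.5% of all tested genes were. edgeR called 1 of the 18, where it called 0.0697% of all tested genes. Tfdp2, a dimerization partner of E2F factors, rose from 10.1 ± 1.31 to 25.4 ± 1.42 CPM (SD, n = 3; log2 fold change 1.32, edgeR adjusted p = 0.00231), and it was not called by limma on FPKM. Its FPKM summed over transcripts was 4.07 ± 1.09 untreated and 5.73 ± 0.713 with IL-33, a smaller ratio, with 1 untreated library above the lowest treated one. The more abundant partner Tfdp1 was at 236 ± 29.9 and 269 ± 17.2 CPM (edgeR adjusted p = 0.763). E2f1 itself was at 31.6 ± 2.14 and 32.7 ± 3.34 CPM (edgeR adjusted p = 0.949). Tfdp1 and E2f1 were chosen after their values were seen. Cdk2, the kinase partner of cyclins E and A, was at 78.7 ± 3.51 and 56.9 ± 12.0 CPM (log2 fold change -0.47, edgeR adjusted p = 0.676), and E2f2 at 5.89 ± 1.08 and 7.84 ± 0.744 CPM (log2 fold change 0.41, edgeR adjusted p = 0.740).

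**Figure D5:**
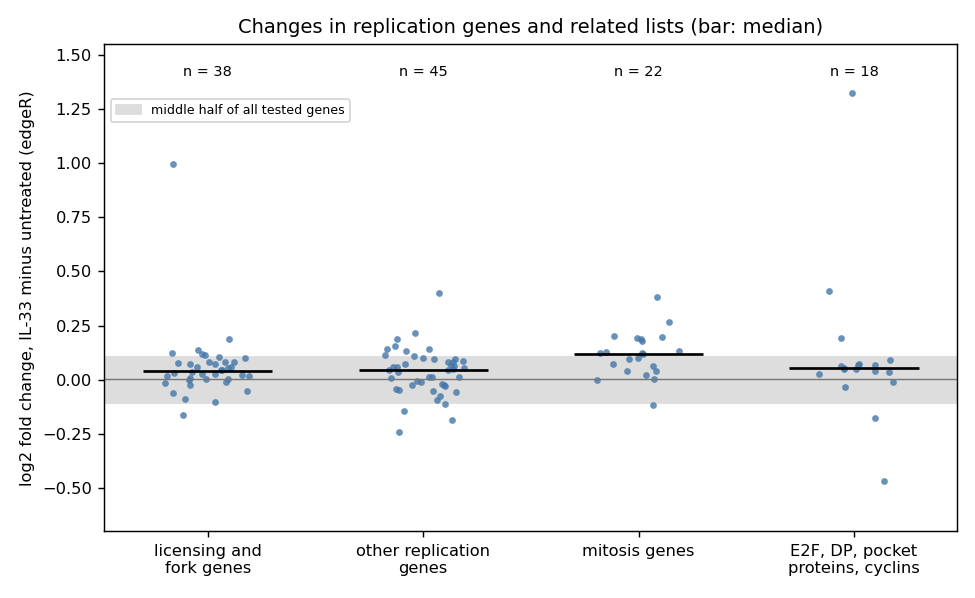
Log2 fold change (IL-33 minus untreated, edgeR) of each gene of 4 lists, 1 point per gene, with a bar at the median and a grey band between the quartiles of all tested genes (-0.11 to 0.11). The medians are 0.04 for the 38 licensing and fork genes, 0.05 for the other replication genes, 0.12 for the mitosis genes and 0.05 for the E2F list, in which Tfdp2 stands highest.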

How the data were processed

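Each of 6 keratinocyte libraries, 3 per group, is 1 sample. The authors deposited estimated counts and FPKM per gene and per transcript. Estimated counts are whole numbers as deposited, and low values piled up at multiples of 4, so they may be scaled read counts. FPKM is per kilobase and depth-scaled, per the file headers. Build mm10, DESeq2 1.18.1, StringTie 1.3.4d, HISAT2 2.1.0 and FastQC 0.11.7 are listed in the submitters' processing notes, and the sources used here give no annotation release.

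Symbols were matched for 52403 of 52550 Ensembl identifiers, and positions are from GENCODE M21 on GRCm38. The test was edgeR 4.0.16 in R 4.3.3 (quasi-likelihood, TMM, robust, filterByExpr at a minimum count of 10), 3 IL-33 against 3 untreated libraries, Benjamini-Hochberg over all tested genes or transcripts, threshold 0.05. It was tested on simulated data. Alternatives were DESeq2 1.42.0, limma 3.58.1 (voom, and log2(FPKM + 0.1) and log2(FPKM + 1)), other scalings and filters, counts divided by 4, the replicate block and each library left out; leaving out Fen1 was added after seeing the data. On counts divided by 4, every pair of libraries within a group differed by more than sampling noise (median chi-square 1.93 to 2.61 times its sampling value).

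Members and lists were chosen with earlier results of these data known. Library values are given for members with unadjusted p under 0.05, the most abundant member of each role by FPKM, and the 3 highest and 3 lowest log2 fold changes; of other lists up to 3 genes with the smallest p are named.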

Additional observations from a re-analysis of the deposited data

How the results depend on the processing

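Over 16 other settings the median log2 fold change of the 38 genes ran from 0.02 (untreated replicate 3 left out) to 0.06 (IL-33 replicate 2 left out), and 26 to 30 of the genes were above 0. The number of them past the threshold was 0 in all settings but 1, and 0 to 1 over the 6 that leave out a library. Without untreated replicate 3 it was 1, Fen1. Outside the leave-one-out fits the lowest adjusted p over the 38 ran from 0.325 to 0.682, and the number at an unadjusted p under 0.05 ran from 1 to 6 over all settings. Without Fen1 0 were called and the median was 0.03. DESeq2 called 2 mitosis genes and 2 member transcripts where edgeR called 0 of each. Of the E2F list limma on log2(FPKM + 0.1) called 0 and on log2(FPKM + 1) 0, and the leave-one-out fits 1 to 2, the second being Cdk2 without IL-33 replicate 1. Estimates near 0 changed sign. Over the leave-one-out fits Cdt1 ran from -0.201 to 0.0887, above 0 when replicate 2 of either group was left out, Gins4 from -0.0591 to 0.0615 and Pold1 from -0.0013 to 0.0384. Gins4 was also at 0.0002 with counts divided by 4, 0.0040 with limma-voom and 0.0088 with upper quartile scaling. With the replicate block 0 of the 38 genes, 0 other replication genes, 0 mitosis genes, 1 E2F list gene and 0 member transcripts were called, and the median was 0.04. Deviations of same-numbered libraries had correlations across genes of 0.04, 0.03 and -0.02, and those of other pairs ran from -0.07 to 0.03. Whether same-numbered libraries shared a culture or batch cannot be told from these values. Leaving out a library leaves 2 in its group. Depth does not separate reads of overlapping genes.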
